A study of Homo sapiens with 18 samples.

Results

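The 58 genes described here are the ligands and receptors of the classical axon guidance systems: 8 EPHA and 5 EPHB receptors, 5 ephrin A and 3 ephrin B ligands, 6 secreted and 7 membrane-bound semaphorins, 8 plexins, 2 neuropilins, 3 SLIT ligands, 4 ROBO receptors, 2 netrins and 5 netrin receptors. They were chosen by name from the 55765 gene symbols of the table of normalized counts. The choice was made with earlier results of these data known, so counts of members beside shares of all genes are descriptive. RNA came from G401, a malignant rhabdoid tumour cell line, grown as a control line targeted at the AAVS1 safe harbour locus (WT) or as one of 2 independent clones, E1 and F2, in which both copies of RB1 were deleted with CRISPR/Cas9. Each line was kept for 11 days in 10 µM tazemetostat, which blocks the histone methyltransferase EZH2, or in an equal volume of the solvent DMSO. That gives 6 groups of 3 biological replicates, 18 libraries in all, and all of them carry the rhabdoid tumour background. E1 and F2 are 1 clone each, so loss of RB1 and the history of a clone cannot be told apart, and whether WT is a clone or a pool is not given in the sources used here. The p-values measure the spread between these cultures.

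Axon guidance molecules steer growing nerve fibres and also shape vessels, epithelia and migrating tumour cells. Ephrins stay on the cell surface and activate EPH receptor tyrosine kinases on a neighbouring cell, with signals running in both directions. Class 3 semaphorins are secreted and bind neuropilins paired with plexins, whereas membrane-bound semaphorins bind plexins directly. SLIT proteins are secreted ligands of ROBO receptors, and netrins attract through DCC and repel through UNC5 receptors. EZH2 is the catalytic subunit of Polycomb repressive complex 2, which places a repressive methyl mark on histone H3 at many developmental genes and holds them silent.

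The libraries held 25709489 to 39314860 reads assigned to genes. Transcripts of RB1 were still counted in the clones, at 505 to 1045 normalized counts (reads divided by the size factor of the library) against 2300.4 to 2828 in WT, with no overlap. SMARCB1, the gene lost in rhabdoid tumours, had no read in any library. In E1 with DMSO, replicate 3 lay over 0.5 on the log2 scale from the mean of its group mates at 11.4% of 11888 expressed genes and replicate 2 at 8.37%, against 0.143% to 4% in the other libraries. Those shares covered 8 and 7 of the 38 members at that level, and the members' calls that were lost or gained without either of these 2 libraries are given with the results or in the closing section. The SD of the median expressed member was 15.2% of its mean in E1 with DMSO, against 4.57% to 8.24% in the other groups. The tests below used 1 spread for all 6 groups, so their SEs may be too small for comparisons with that group. In RefSeq (GRCh38.p14), 36 of the 58 members overlap another long noncoding or protein-coding gene. Whether counting used the strand is not given in the sources used here, so reads of such pairs may not be told apart. In bulk RNA, a change in the number of cells of a type and a change in RNA per cell cannot be told apart.

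Tazemetostat raised much of this gene family in all 3 lines. A change was called at an adjusted p under 0.05 together with a log2 size of 1 or more (limma on log2(value + 1)), and 45 members were expressed enough to be tested. In WT 27 members were called, 24 that rose and 3 that fell, where 21.3% of all tested genes were called, 14.5% higher and 6.77% lower. In E1 21 were called, 19 that rose and 2 that fell, beside 15.1% of all tested genes, 11.3% higher and 3.78% lower. In F2 23 were called, 21 that rose and 2 that fell, beside 17% of all tested genes, 13.3% higher and 3.71% lower. The median log2 change of the tested members was 1.09 for WT, 0.46 for E1 and 0.85 for F2, beside 0.03, 0.02 and 0.02 over all tested genes. The 3 comparisons rest on separate libraries. Since genes with a low level in all groups were not tested, these counts cover the members that passed that filter. A gene near 0 in DMSO could pass it only through higher groups, such as the treated ones. Its rise was thus partly set by the filter, among members and all tested genes alike. Of the risen members, 7 of 24 in WT, 8 of 19 in E1 and 9 of 21 in F2 had a DMSO mean under 10.

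Of the tested members, 18 rose in all 3 lines: the receptors EPHA2, EPHA7, EPHB1, EPHB2, NRP1, NRP2, PLXNA2, PLXNC1, ROBO1, ROBO4 and UNC5B, and the ligands EFNB1, EFNB2, SEMA3C, SEMA6A, SLIT2, SLIT3 and NTN1. Another 4 (EFNA1, NTN4, SEMA7A and UNC5A) rose in exactly 2 lines and 2 (EPHA3 and PLXNA3) in WT only among the calls. No member was called lower in all 3 lines. SEMA3D, SEMA3E and EFNA2 were lower in each line at an adjusted p under 0.05 in limma, but missed the size limit in some lines. Counts of members that rose or fell, here and below, are of calls. By role, 14 of 22 tested receptors rose in WT, 11 did so in E1 and 12 in F2, and of 23 tested ligands 10 rose in WT, 8 did so in E1 and 9 in F2. All 3 falls in WT and both falls in E1 were of ligands, and in F2 1 ligand and 1 receptor fell.

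**Figure D1:**
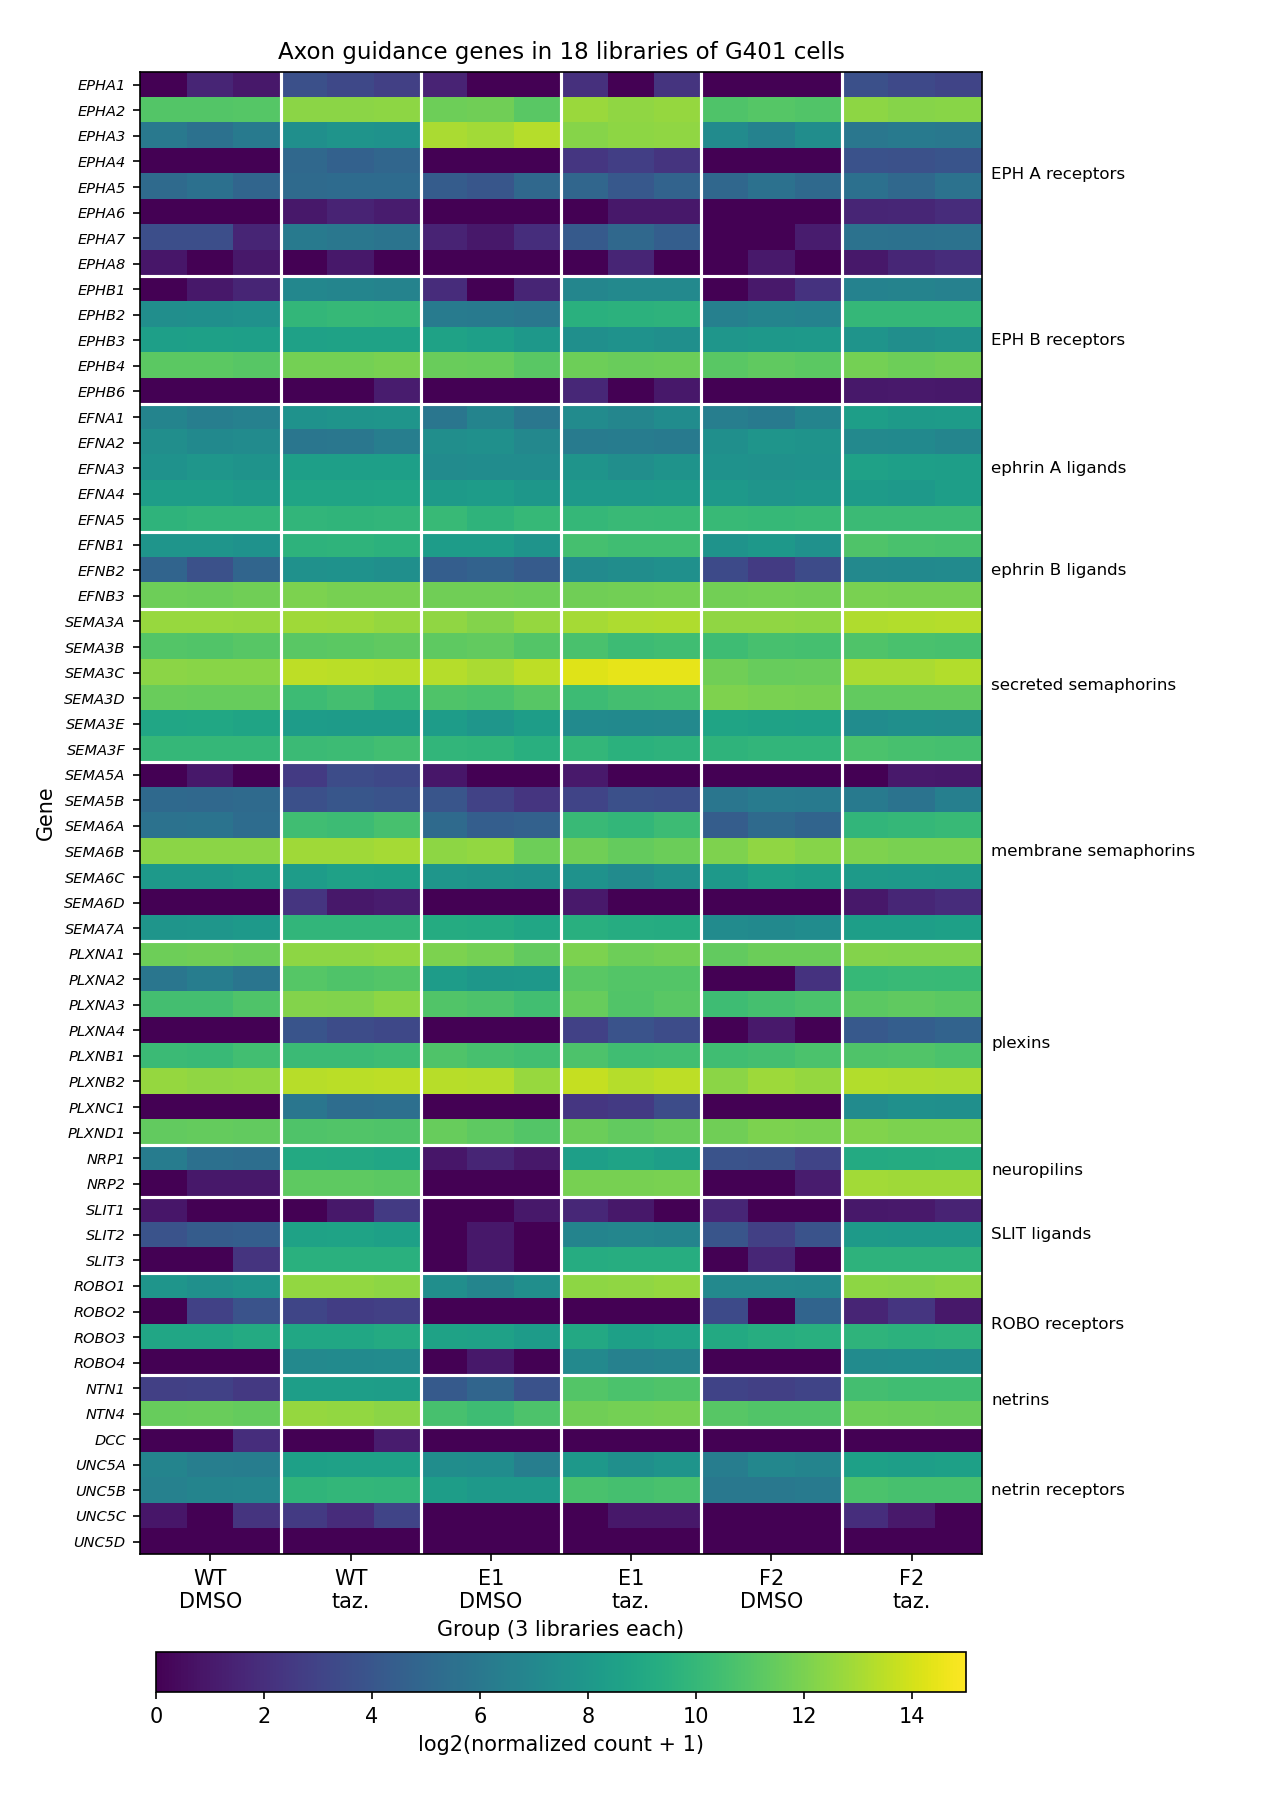
Heat map of the members' levels, as log2(normalized count + 1), with 1 row per member ordered by role and 1 column per library in the 6 groups. NRP2, SLIT3 and ROBO4 are dark in all DMSO columns and bright in all tazemetostat columns, whereas EPHA3 is high in both E1 groups.

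**Figure D2:**
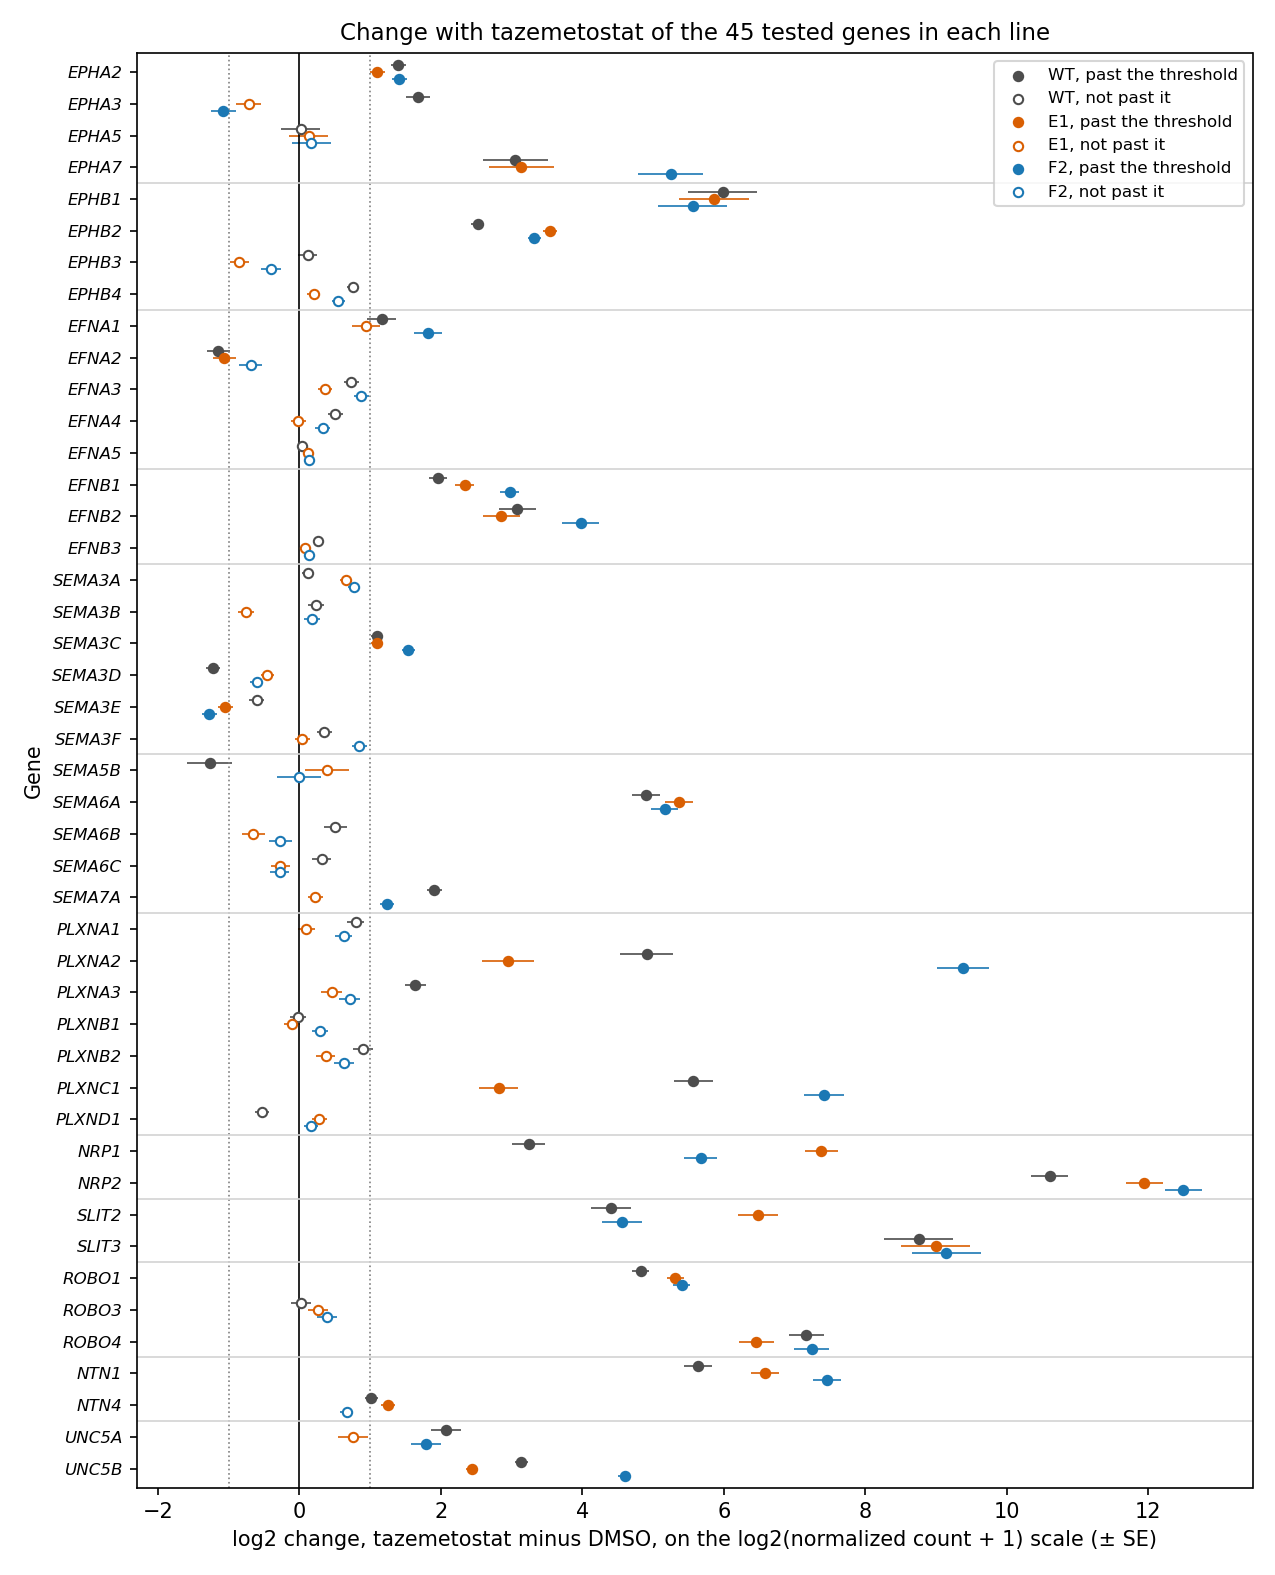
Log2 change with tazemetostat against DMSO of each tested member (points) in WT, E1 and F2, with bars of 1 SE, filled points for calls, open points for the rest and the size limit of 1 as dotted lines. Most points lie to the right of 0, and NRP2 lies farthest right in each line.

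Many of the members that rose had a low DMSO level, though not all. The median DMSO level of the risen members was 63.8 normalized counts for WT, 21.7 for E1 and 11.3 for F2, against 1129, 1317 and 1496 for the tested members called in neither direction. In WT 7 of the 24 risen members had a DMSO mean under 10, in E1 8 of 19 and in F2 9 of 21. At the other end, 4 risen members in WT (SEMA3C, NTN4, EPHA2 and PLXNA3), 3 in E1 and 2 in F2 had a DMSO mean of 1000 or more. These levels are partly tied to the change itself, since both use the DMSO libraries. The filter ties them further, because a member was tested only with a mean of at least 10 over all libraries. A member with a DMSO mean under 10 could pass only if other groups, such as the treated ones, stood higher. The medians and counts therefore describe the tested members and cannot decide whether members low in DMSO were more prone to rise.

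Some markers of other cell types moved with the treatment. Summed levels with and without tazemetostat did not overlap for the epithelial and leukocyte markers in any line, for the neuronal markers in WT and F2 and for the endothelial markers in WT. They overlapped for the neuronal markers in E1 and the endothelial markers in E1 and F2. The summed level of 12 neuronal markers went from between 4932 and 5605 in WT with DMSO to between 20496 and 21107 with tazemetostat. In E1 the sums were 3876 to 8409 and then 7730.2 to 9595, and in F2 2822 to 3718 and then 6974 to 7956. TUBB3 made up most of each sum, and the defining neuronal genes STMN2, ELAVL4, DCX, NEFL, NEFM and SNAP25 were all at 0 in WT with DMSO. In treated WT each of the 12 had a read in some library. ELAVL4 stayed at 0 in treated E1 and F2, and SNAP25 in treated F2. Of 8 epithelial markers, KRT8 and KRT18 led a sum that went from between 39338 and 43952 to between 271006 and 283396 in WT. KRT19 and GRHL2 were at 0 in WT before treatment and had reads with it. That sum went from between 56795 and 85212 to between 151825 and 158631 in E1, and from between 22216 and 24465 to between 147056 and 158235 in F2. The 9 endothelial markers found in the table summed to 1019 to 1142 and then 1452 to 1573 in WT, nearly all of it EGFL7. KDR and TEK were at 0 in WT with DMSO and had reads with tazemetostat. In E1 they summed to 515 to 1310.0 and then 548 to 796, and in F2 to 964 to 1372 and then 1092 to 1295. The 8 leukocyte markers summed to at most 119.7 in any library. PTPRC was at 0 in the DMSO libraries of all 3 lines and in treated E1, but not in treated WT or F2. Single markers did not all follow their sums. TUBB3 rose in WT and F2 but was not called in E1 (0.41 in log2), whereas the neuronal genes MAP2 and SYT1 rose in every line and SYP was under the size limit (-0.51 for WT, -0.77 for E1 and -0.69 for F2). EPCAM fell in E1 (-1.37) and F2 (-1.14), against the epithelial sum. VWF, an endothelial gene, and ITGAM, a leukocyte gene, rose in every line, while EGFL7 was called in none. The part of these markers in the members' changes was not tested.

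For 50 of the 58 members, RefSeq (GRCh38.p14) gave the 250 bases before the annotated start of the gene. Their CG dinucleotides were counted because Polycomb targets in mammals often carry CpG islands. The 6 stretches shown were picked to span 5 members that rose in every line, from CG-rich to CG-poor, and EPHA3, which stood apart in E1. Each runs 5′ to 3′ on the strand of its gene, and capitals mark each CG.
NRP2 (chr2:205682251-205682500, plus strand): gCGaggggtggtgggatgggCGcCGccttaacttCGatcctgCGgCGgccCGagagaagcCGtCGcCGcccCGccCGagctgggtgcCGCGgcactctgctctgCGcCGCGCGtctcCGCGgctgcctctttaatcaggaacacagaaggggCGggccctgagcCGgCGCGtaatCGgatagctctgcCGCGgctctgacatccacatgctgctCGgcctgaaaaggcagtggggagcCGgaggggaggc
PLXNA2 (chr1:208244385-208244634, minus strand): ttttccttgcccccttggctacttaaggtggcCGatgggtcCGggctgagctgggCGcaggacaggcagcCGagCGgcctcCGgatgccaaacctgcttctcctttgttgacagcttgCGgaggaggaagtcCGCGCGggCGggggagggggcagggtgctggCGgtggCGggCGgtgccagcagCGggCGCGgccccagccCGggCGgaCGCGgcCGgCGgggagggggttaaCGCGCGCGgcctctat
SLIT3 (chr5:169301140-169301389, minus strand): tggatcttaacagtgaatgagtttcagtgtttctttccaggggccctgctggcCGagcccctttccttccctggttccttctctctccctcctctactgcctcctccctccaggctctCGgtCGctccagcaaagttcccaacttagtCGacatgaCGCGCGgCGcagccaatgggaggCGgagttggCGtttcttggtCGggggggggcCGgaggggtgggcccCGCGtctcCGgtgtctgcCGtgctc
ROBO1 (chr3:79767999-79768248, minus strand): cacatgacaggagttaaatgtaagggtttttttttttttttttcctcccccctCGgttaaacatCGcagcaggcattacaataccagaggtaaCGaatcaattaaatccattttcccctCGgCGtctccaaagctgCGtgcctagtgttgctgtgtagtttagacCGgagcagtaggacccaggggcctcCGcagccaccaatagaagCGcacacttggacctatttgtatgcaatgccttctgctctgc
SEMA3C (chr7:80922390-80922639, minus strand): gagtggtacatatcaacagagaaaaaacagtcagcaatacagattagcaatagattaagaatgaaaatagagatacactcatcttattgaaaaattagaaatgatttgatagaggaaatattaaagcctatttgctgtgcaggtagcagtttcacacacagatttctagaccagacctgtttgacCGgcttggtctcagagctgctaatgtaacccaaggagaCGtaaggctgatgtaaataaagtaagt
EPHA3 (chr3:89107371-89107620, plus strand): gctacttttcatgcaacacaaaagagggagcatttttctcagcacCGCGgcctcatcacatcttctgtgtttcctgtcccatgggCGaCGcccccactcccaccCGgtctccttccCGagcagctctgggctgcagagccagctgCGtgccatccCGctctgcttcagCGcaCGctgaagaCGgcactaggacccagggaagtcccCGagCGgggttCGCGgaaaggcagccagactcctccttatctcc

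These 6 stretches, picked for their range, held 29, 27, 16, 9, 2 and 15 CGs in that order. Over the 14 matched members that rose in every line, counts in this window ran from 2 (SEMA3C) to 42 (EPHB2). The median was 18 CGs over the 50 matched members (range 2 to 46), 15.5 over the 14 that rose in all 3 lines and 22 over the 14 called in no line. Over the promoters of all tested genes found in the table it was 21 (n = 10139), and over all 27303 promoters given it was 11. At least 15 CGs were found in 68% of the matched members, in 72% of the tested genes and in 42.7% of all promoters. The letters TTTCCCGC or TTTGGCGC, forms of the E2F motif read on both strands, were in 0 of the 50 stretches, in 3.11% of the tested genes and in 1.96% of all promoters. TATAAA, also read on both strands, was in 1 of the 50 (2%), in 5.45% of the tested genes and in 11.1% of all promoters. No match says only that these letters are not in this window.

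Both neuropilins, the co-receptors that let plexins bind secreted semaphorins, rose in every line, NRP2 with the largest log2 change of any tested member. NRP2 had 0, 0.942 and 0.946 normalized counts in the 3 WT libraries with DMSO and 2484, 2462 and 2353 with tazemetostat. NRP2 in E1 went from 0, 0 and 0 to 3917, 3868 and 4072. NRP2 in F2 went from 0, 0 and 1.21 to 7772, 7553 and 7299. NRP2 was thus at or under 1 read in every one of the 9 DMSO libraries and at 2353 or more in all 9 treated ones, with the F2 libraries the highest. The ratio of means was 3865 in WT with a 95% counting interval of 1101 to 32864, at least 1395-fold in E1, where DMSO held no read, and 18644 in F2 with an interval of 3739 to 822952. Such intervals, and the floor of 3 reads per library behind each "at least", cover counting error only.

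NRP1 also serves as a co-receptor of vascular endothelial growth factor. NRP1 in WT went from 78.6, 45.2 and 42.6 normalized counts in DMSO to 546, 526 and 470.4 with tazemetostat. NRP1 in E1 went from 0.893, 1.93 and 0.974 to 357, 411 and 344. NRP1 in F2 went from 13.3, 12.4 and 7.28 to 569.9, 591 and 624. The lines stood far apart in DMSO, WT highest and E1 lowest, and lay between 344 and 624 with the inhibitor. The log2 change was 3.24 ± 0.23 in WT with adjusted p = 6.3e-10, 7.38 ± 0.23 in E1 with adjusted p = 3.7e-15 and 5.67 ± 0.23 in F2 with adjusted p = 1.6e-13, where ± is the SE here and below. With at most 2 reads per E1 library in DMSO, the E1 value ranged from 5.9 to 8.2 over the alternative runs described below.

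Plexins are the signalling receptors of the semaphorins. Of the 7 tested, 3 rose in WT and 2 in each clone, and none fell. PLXNA2, a receptor of class 6 and, with neuropilins, class 3 semaphorins, had 59.4, 82.0 and 56.8 normalized counts in WT with DMSO and 2102, 1860.3 and 2023 with tazemetostat. PLXNA2 in E1 went from 314, 243 and 258 to 2245, 1988 and 2062. PLXNA2 in F2 went from 0, 0 and 3.64 to 1079, 1145 and 1116. PLXNA2 thus began at 3 levels, from no read in 2 of the 3 F2 libraries up to at least 243 in E1, and ended within a range of 1079 to 2245. The log2 change was 4.91 ± 0.37 in WT with adjusted p = 1.3e-09, 2.95 ± 0.37 in E1 with adjusted p = 2.3e-06 and 9.38 ± 0.37 in F2 with adjusted p = 9.1e-14, and against the few F2 reads the ratio was 917 with a counting interval of 351 to 4975.

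PLXNA3, a class A plexin that also works with neuropilins, went in WT from 1474, 1478 and 1845 to 4730.2, 4594 and 5581. PLXNA3 in E1 had 1962, 1786 and 1433 with DMSO and 2975, 1932 and 2273 with tazemetostat. PLXNA3 in F2 had 1276, 1502 and 1755 with DMSO and 2421, 2576 and 2359 with tazemetostat. All WT treated libraries stood above every other library. Its log2 change was 1.64 ± 0.15 in WT with adjusted p = 1.5e-08, 0.46 ± 0.15 in E1 with adjusted p = 0.016 and 0.71 ± 0.15 in F2 with adjusted p = 5.2e-04, so the call was made in WT only. The E1 response was smaller than that of WT by a called amount (-1.18 ± 0.21, adjusted p = 2.7e-04), and the F2 difference was under the size limit (-0.93 ± 0.21, adjusted p = 0.0028).

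PLXND1, the receptor of SEMA3E, had 2658, 2816 and 2688 in WT with DMSO and 1841, 1922 and 1908 with tazemetostat. PLXND1 in E1 had 2893, 2487 and 2037 with DMSO and 3204, 2709.9 and 3042 with tazemetostat. PLXND1 in F2 had 3452, 4238 and 4002 with DMSO and 4631, 4168 and 4255 with tazemetostat. No change with the inhibitor reached the limit (-0.52 ± 0.10 in WT with adjusted p = 1.8e-04, 0.28 ± 0.10 in E1 with adjusted p = 0.028 and 0.16 ± 0.10 in F2 with adjusted p = 0.19), though with tazemetostat F2 stood above WT (1.20 ± 0.10, adjusted p = 1.7e-08). PLXNC1, the receptor of SEMA7A, had no read in any DMSO library and 58.1, 40.2 and 43.1 in WT, 4.26, 4.84 and 10.4 in E1 and 152, 184 and 175 in F2 with tazemetostat. That is at least 17.1-fold, 2.29-fold and 52.0-fold higher. The other tested plexins, PLXNA1, PLXNB1 and PLXNB2, were called in no comparison. They ranged over 2665 to 6111, 1159 to 1941 and 5413 to 12922 normalized counts in the 18 libraries.

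Among the 6 secreted semaphorins, 1 was called higher and 1 lower in each line. SEMA3C, a ligand that acts through neuropilins with class A plexins or with PLXND1, had 5415, 5135 and 5144 normalized counts in WT with DMSO and 11473, 11370.5 and 10684 with tazemetostat. SEMA3C in E1 went from 10394, 8597 and 11419 to 19853, 22606 and 22131. SEMA3C in F2 went from 3394, 2950.2 and 3020.3 to 8688, 8789.9 and 9763. E1 was highest and F2 lowest in both treatments, and in each line the treated libraries lay above the DMSO ones. Its log2 change came to 1.09 ± 0.09 in WT with adjusted p = 2.7e-09, 1.09 ± 0.09 in E1 with adjusted p = 3.8e-09 and 1.54 ± 0.09 in F2 with adjusted p = 1.9e-11. Scaled to equal totals it was 0.94 in WT, and without replicate 2 of E1 with DMSO it was 0.98 in E1, both under the limit.

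SEMA3D, a secreted ligand of neuropilin 1, went the other way. SEMA3D in WT had 3047, 2924 and 2918 with DMSO and 1270.2, 1445 and 1117 with tazemetostat. SEMA3D in E1 had 1892, 1737 and 2169 with DMSO and 1246, 1465 and 1519 with tazemetostat. SEMA3D in F2 had 4442, 3984 and 3825 with DMSO and 2669, 2649 and 2712 with tazemetostat. Treated libraries lay below the DMSO libraries in each line, and the fall was called in WT (-1.22 ± 0.10 in WT with adjusted p = 2.0e-09, -0.45 ± 0.10 in E1 with adjusted p = 6.8e-04 and -0.61 ± 0.10 in F2 with adjusted p = 2.9e-05).

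SEMA3E, which signals through PLXND1 without a neuropilin, had 474, 479.7 and 432 in WT with DMSO and 314, 299 and 296 with tazemetostat. SEMA3E in E1 went from 308, 234 and 319.5 to 146, 136 and 130.0. SEMA3E in F2 went from 430.3, 397 and 381 to 155, 177 and 166. It was lower in each line, and the fall was called in both clones but not in WT (-0.61 ± 0.11 in WT with adjusted p = 1.1e-04, -1.05 ± 0.11 in E1 with adjusted p = 2.1e-07 and -1.27 ± 0.11 in F2 with adjusted p = 1.1e-08). In E1 the change was -0.96 without replicate 3 of the DMSO group and -0.99 without replicate 1, under the limit in size. SEMA3A, SEMA3B and SEMA3F were called in no comparison and ranged over 4821 to 10150.0, 1258 to 2720.4 and 692 to 1727. SEMA3E, SEMA3A and SEMA3D are consecutive protein-coding genes on chromosome 7.

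Of the 5 tested membrane-bound semaphorins, 2 rose and 1 fell in WT, 1 rose in E1 and 2 rose in F2. SEMA6A, a transmembrane ligand of PLXNA2 and PLXNA4, had 49.8, 50.9 and 37.9 in WT with DMSO and 1371, 1239 and 1601 with tazemetostat. SEMA6A in E1 went from 34.8, 21.2 and 24.4 to 1164, 984 and 1239. SEMA6A in F2 went from 20.5, 35.3 and 27.9 to 939.8, 996 and 1112. The 3 lines moved alike, from at most 50.9 to at least 939.8, with a log2 change of 4.90 ± 0.19 in WT with adjusted p = 7.8e-14, 5.37 ± 0.19 in E1 with adjusted p = 2.1e-14 and 5.17 ± 0.19 in F2 with adjusted p = 3.2e-14.

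SEMA7A, a lipid-anchored semaphorin that binds PLXNC1 and integrins, had 229.7, 239 and 268 in WT with DMSO and 926, 919 and 926 with tazemetostat. SEMA7A in E1 had 596, 571 and 471 with DMSO and 709, 614 and 589 with tazemetostat. SEMA7A in F2 went from 149, 138 and 157 to 333, 343 and 373. The E1 groups overlapped, while WT and F2 did not (1.91 ± 0.10 in WT with adjusted p = 6.0e-12, 0.23 ± 0.10 in E1 with adjusted p = 0.075 and 1.24 ± 0.10 in F2 with adjusted p = 4.1e-09). SEMA7A was thus highest in E1 without the inhibitor and highest in WT with it.

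SEMA6B, another transmembrane ligand of class A plexins, had 5305, 5470.0 and 5315 in WT with DMSO and 7383, 7471 and 8027 with tazemetostat. SEMA6B in E1 had 5712, 6156 and 3291 with DMSO and 3379, 2762 and 3183 with tazemetostat. SEMA6B in F2 had 4335, 5763 and 5047 with DMSO and 4434, 4098 and 3976 with tazemetostat. The treated WT libraries lay above their DMSO libraries by less than the limit, and neither clone was called (0.51 ± 0.16 in WT with adjusted p = 0.01, -0.65 ± 0.16 in E1 with adjusted p = 0.0025 and -0.27 ± 0.16 in F2 with adjusted p = 0.17). SEMA5B, a transmembrane semaphorin with thrombospondin repeats, stood at 33.7 ± 1.52 (SD, n = 3) in WT with DMSO and 13.4 ± 1.57 (SD, n = 3) with tazemetostat, a fall (-1.27 ± 0.31, adjusted p = 0.0017). SEMA6C was called in no comparison and ranged over 149 to 387.

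Both tested SLIT ligands (SLIT2 and SLIT3) and 2 of the 3 tested ROBO receptors (ROBO1 and ROBO4) rose in every line, and SLIT1 and ROBO2 were too low to test. SLIT2, a secreted repellent, had 13.1, 19.8 and 21.8 normalized counts in WT with DMSO and 401.1, 422 and 371 with tazemetostat. SLIT2 in E1 went from 0, 0.965 and 0 to 109, 116 and 109. SLIT2 in F2 went from 14.3, 6.22 and 13.3 to 287, 263 and 270.1. E1 was lowest in both treatments, with a single read in its DMSO libraries, and its treated libraries lay below those of WT and F2. The log2 change was 4.40 ± 0.28 in WT (adjusted p = 1.1e-10) and 4.56 ± 0.28 in F2 (adjusted p = 7.0e-11), and in E1 the ratio was 346 with a counting interval of 63.2 to 14041.

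SLIT3, its paralogue, had 0, 0 and 3.79 in WT with DMSO and 728, 723 and 730.3 with tazemetostat. SLIT3 in E1 went from 0, 0.965 and 0 to 631, 639 and 649. SLIT3 in F2 went from 0, 2.07 and 0 to 835, 819 and 819.5. All 9 treated libraries lay between 631 and 835, a narrow range against a DMSO level of at most 4 reads. The ratio was 1989 in E1 (counting interval 365 to 80520.1) and 1192 in F2 (315 to 9413), and the log2 change in WT was 8.76 ± 0.49, adjusted p = 1.3e-11.

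ROBO1, the main SLIT receptor in many tissues, had 226, 183 and 214 in WT with DMSO and 6016, 5976 and 5677 with tazemetostat. ROBO1 in E1 went from 169, 112 and 169 to 5539.5, 5893 and 6275. ROBO1 in F2 went from 130.1, 134 and 127 to 5489, 5404 and 5809. The 3 lines overlapped with tazemetostat and moved by 4.82 ± 0.12 in WT with adjusted p = 1.0e-16, 5.31 ± 0.12 in E1 with adjusted p = 2.8e-17 and 5.40 ± 0.12 in F2 with adjusted p = 2.1e-17. ROBO4, a receptor best known from endothelium, had no read in WT or F2 with DMSO and 1 read in E1, and stood at 143 ± 10.4 (SD, n = 3), 110.1 ± 19.7 (SD, n = 3) and 151 ± 4.72 (SD, n = 3) in treated WT, E1 and F2. This is at least 51.7-fold higher in WT and at least 46.1-fold in F2, and a ratio of 342 in E1 with a counting interval of 62.1 to 13792. ROBO3, which governs midline crossing of axons, was called in no comparison and ranged over 297 to 864, although it is the next protein-coding gene to ROBO4 on chromosome 11.

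**Figure D3:**
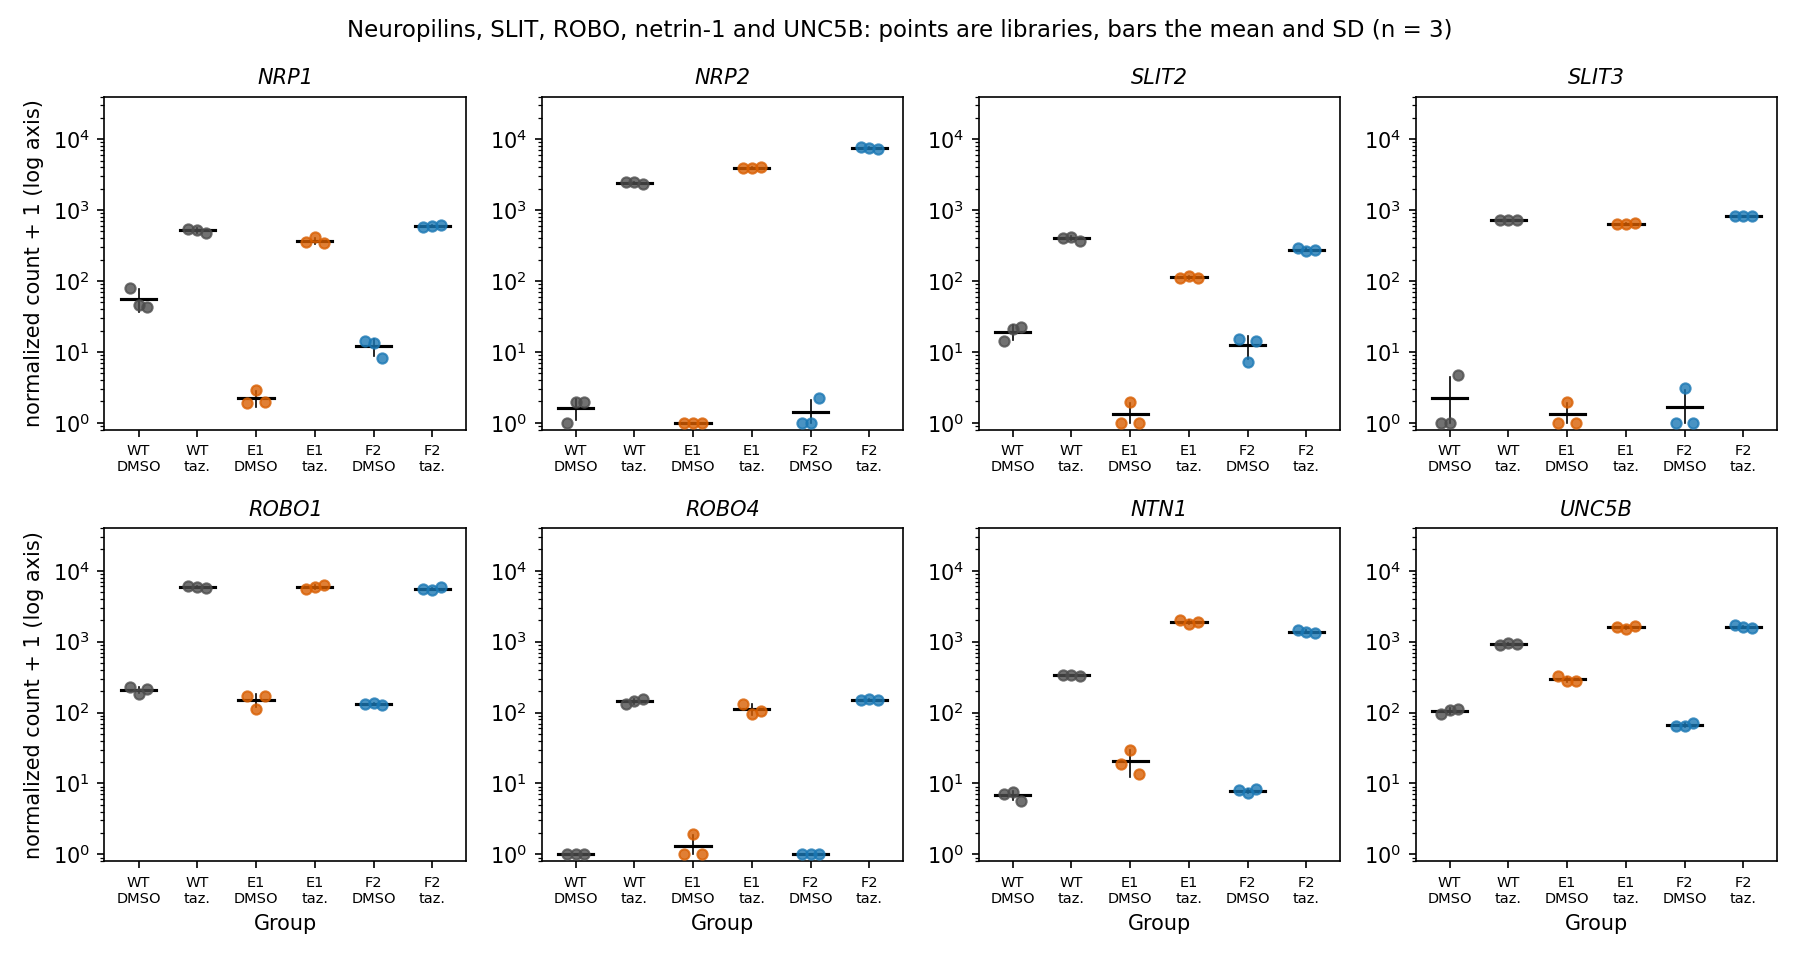
Levels of NRP1, NRP2, SLIT2, SLIT3, ROBO1, ROBO4, NTN1 and UNC5B as normalized count + 1 on a log axis (vertical), with 1 point per library, a bar at the mean and a line of 1 SD for each of the 6 groups of 3 libraries. In every panel the tazemetostat points of a line lie above its DMSO points.

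Both netrins rose in WT. NTN1, the founding netrin, had 6.11, 6.60 and 4.73 normalized counts in WT with DMSO and 342, 337 and 331 with tazemetostat. NTN1 in E1 went from 17.9, 29.0 and 12.7 to 2038, 1756 and 1898. NTN1 in F2 went from 7.17, 6.22 and 7.28 to 1479.7, 1347 and 1334. Both treated clones lay several times above treated WT, and no treated library overlapped a DMSO library. These were log2 changes of 5.64 ± 0.20 in WT with adjusted p = 1.8e-14, 6.58 ± 0.20 in E1 with adjusted p = 2.0e-15 and 7.46 ± 0.20 in F2 with adjusted p = 2.9e-16.

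NTN4, a netrin found in basement membranes, had 2935, 3013 and 2835 in WT with DMSO and 6373, 6097 and 5339.7 with tazemetostat. NTN4 in E1 went from 1598, 1319 and 1805 to 3499.6, 3754 and 3920.4. NTN4 in F2 had 2193, 1938 and 1918 with DMSO and 3345, 3155 and 3091 with tazemetostat. The treated libraries lay above the DMSO libraries in each line, with a call in WT and E1 only (1.02 ± 0.09 in WT with adjusted p = 2.0e-08, 1.25 ± 0.09 in E1 with adjusted p = 1.4e-09 and 0.67 ± 0.09 in F2 with adjusted p = 7.0e-06). The WT call sat at the limit, at 0.86 when libraries were scaled to equal totals, 0.99 without replicate 3 of WT with DMSO, and 0.96 and 0.99 without replicates 1 and 2 of treated WT.

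UNC5B, a netrin receptor that also acts as a dependence receptor, had 94.3, 108 and 111 in WT with DMSO and 892, 961 and 929 with tazemetostat. UNC5B in E1 went from 322, 277 and 278 to 1625, 1495 and 1636. UNC5B in F2 went from 63.5, 64.3 and 70.4 to 1691, 1604 and 1572. E1 stood highest in DMSO, and both clones lay above WT with tazemetostat, by less than the limit. In log2 this was 3.14 ± 0.09 in WT with adjusted p = 5.4e-16, 2.44 ± 0.09 in E1 with adjusted p = 2.1e-14 and 4.60 ± 0.09 in F2 with adjusted p = 2.6e-18.

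UNC5A, a related receptor, had 107, 82.9 and 80.4 in WT with DMSO and 364, 379.7 and 390.4 with tazemetostat. UNC5A in E1 had 161, 156 and 83.8 with DMSO and 259.8, 179 and 219.5 with tazemetostat. UNC5A in F2 went from 79.9, 120.3 and 109 to 365, 336 and 364. The rise was called in WT and F2 (2.07 ± 0.21 in WT with adjusted p = 8.0e-08, 0.75 ± 0.21 in E1 with adjusted p = 0.0065 and 1.79 ± 0.21 in F2 with adjusted p = 7.1e-07), and in E1 the change was 0.45 without replicate 3 of its DMSO group. DCC, the attractive netrin receptor, had 3 reads or fewer in each library.

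Of the 8 tested EPH receptors, 5 rose in WT and 4 in each clone, and 1 fell in F2. EPHA2, an EPH receptor common on epithelial and tumour cells, had 2049, 2042 and 2090.4 normalized counts in WT with DMSO and 5445, 5374 and 5513 with tazemetostat. EPHA2 in E1 went from 3239, 3407 and 2295 to 6803, 5793 and 6329.6. EPHA2 in F2 went from 1861, 2149 and 1949 to 5655, 5039 and 5161. Even the lowest treated library stood above the highest DMSO library, with a log2 change of 1.40 ± 0.11 in WT with adjusted p = 1.3e-09, 1.10 ± 0.11 in E1 with adjusted p = 6.2e-08 and 1.41 ± 0.11 in F2 with adjusted p = 1.4e-09. The E1 call was lost at 0.92 without replicate 3 of its DMSO group.

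EPHA3, a receptor of A-type ephrins, stood apart in E1. EPHA3 in WT went from 67.3, 47.1 and 70.0 to 175, 219 and 196. EPHA3 in E1 went from 8660.2, 7785 and 10373 to 4866, 5593 and 5753. EPHA3 in F2 went from 153, 99.6 and 164 to 61.2, 68.6 and 62.0. E1 held at least 4866 normalized counts in both treatments, where the other lines held at most 219. Its log2 change was 1.68 ± 0.17 in WT with adjusted p = 8.4e-08, -0.72 ± 0.17 in E1 with adjusted p = 0.0019 and -1.07 ± 0.17 in F2 with adjusted p = 3.2e-05, a rise in WT and a fall in F2. The F2 fall was -0.99 without replicate 1 and -0.94 without replicate 3 of its DMSO group.

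EPHB2, a receptor of B-type ephrins, had 166, 178 and 190.2 in WT with DMSO and 982, 1062 and 1031 with tazemetostat. EPHB2 in E1 went from 73.2, 67.6 and 61.4 to 739, 809 and 842. EPHB2 in F2 went from 91.2, 110.0 and 99.5 to 1012, 1015 and 999.9. WT was highest in DMSO, and E1 was lowest in both treatments (2.52 ± 0.09 in WT with adjusted p = 4.1e-14, 3.55 ± 0.09 in E1 with adjusted p = 3.1e-16 and 3.32 ± 0.09 in F2 with adjusted p = 6.4e-16). EPHB3, which shares those ligands, had 359.9, 371 and 352 with DMSO and 385, 391 and 397 with tazemetostat in WT. EPHB3 in E1 had 402, 349 and 258 with DMSO and 177, 200.2 and 173 with tazemetostat, and in F2 230.5, 253 and 282 with DMSO and 217, 169.6 and 192 with tazemetostat. Its change was called in no line (0.11 ± 0.13 in WT with adjusted p = 0.47, -0.85 ± 0.13 in E1 with adjusted p = 3.5e-05 and -0.40 ± 0.13 in F2 with adjusted p = 0.018), though without replicate 3 of E1 with DMSO it was -1.03 in E1, past the limit.

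EPHB1 and EPHA7 were lower members that rose in every line. EPHB1, another B-type receptor, stood at 112 ± 8.96 (SD, n = 3), 129 ± 8.05 (SD, n = 3) and 98.8 ± 4.30 (SD, n = 3) in treated WT, E1 and F2 against 0.945, 1.54 and 1.56 in DMSO. In WT the ratio was 118 with a counting interval of 41.4 to 595. EPHA7, an A-type receptor, stood at 62.5 ± 10.0 (SD, n = 3), 24.2 ± 7.71 (SD, n = 3) and 48.6 ± 1.26 (SD, n = 3) when treated and at 8.19, 1.89 and 0.404 in DMSO. EPHA5, an A-type receptor, and EPHB4, the receptor of EFNB2 known from veins, were called in no comparison and ranged over 15.4 to 49.9 and 2197 to 4106.

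Of the 8 ephrins, EFNB1 and EFNB2 rose in every line. EFNB1, a transmembrane ligand encoded on the X chromosome, had 227, 223 and 196 in WT with DMSO and 838, 871 and 810.3 with tazemetostat. EFNB1 in E1 went from 311, 317 and 218 to 1508, 1351 and 1377. EFNB1 in F2 went from 205, 258 and 189 to 1892, 1640.1 and 1575. DMSO levels were alike, and the treated clones lay above treated WT (1.96 ± 0.13 in WT with adjusted p = 2.2e-10, 2.34 ± 0.13 in E1 with adjusted p = 2.0e-11 and 2.97 ± 0.13 in F2 with adjusted p = 4.6e-13). EFNB2, the transmembrane partner of EPHB4 and EPHB2, stood at 22.9 ± 9.19 (SD, n = 3), 21.7 ± 3.30 (SD, n = 3) and 8.04 ± 2.48 (SD, n = 3) in DMSO and at 189 ± 14.0 (SD, n = 3), 162 ± 20.1 (SD, n = 3) and 137 ± 4.82 (SD, n = 3) when treated.

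EFNA1, a lipid-anchored ligand of EPHA receptors, had 107, 85.8 and 93.7 in WT with DMSO and 202, 221 and 222 with tazemetostat. EFNA1 in E1 had 58.9, 109 and 60.4 with DMSO and 151, 119 and 156 with tazemetostat. EFNA1 in F2 went from 84.0, 71.6 and 107 to 343, 283 and 298. Its rise was called in WT and F2, and E1 missed the limit (1.16 ± 0.20 in WT with adjusted p = 5.7e-05, 0.94 ± 0.20 in E1 with adjusted p = 7.6e-04 and 1.82 ± 0.20 in F2 with adjusted p = 3.2e-07), which it passed at 1.23 without replicate 2 of its DMSO group.

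EFNA2, another lipid-anchored ephrin, had 167, 136 and 149.5 in WT with DMSO and 59.1, 60.8 and 85.0 with tazemetostat. EFNA2 in E1 went from 169.7, 183 and 125 to 73.5, 79.3 and 71.6. EFNA2 in F2 had 178, 223 and 211 with DMSO and 130.1, 137 and 111 with tazemetostat. It was lower in each line, and the fall was called in WT and E1 but not in F2 (-1.14 ± 0.17 in WT with adjusted p = 7.8e-06, -1.06 ± 0.17 in E1 with adjusted p = 3.0e-05 and -0.69 ± 0.17 in F2 with adjusted p = 0.0018), though without replicate 2 of E1 with DMSO the E1 change was -0.95. EFNA3, EFNA4, EFNA5 and EFNB3 were called in no comparison and ranged over 147 to 386, 227 to 458, 860.1 to 1218 and 3170.4 to 4136. EFNA4, EFNA3 and EFNA1 are consecutive protein-coding genes on chromosome 1, and EFNA3 and EFNA4 share a readthrough gene, so reads may be split between them.

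Without the inhibitor, both clones differed from WT at some members, and 3 of them were called in the same direction in both. E1 differed from WT at 10 of 45 tested members (22.2%), against 5.04% of all tested genes. It was higher at 5 and lower at 5 (11.1% each), against 2.35% and 2.69% of all tested genes. F2 differed at 5 (11.1%), against 2.98% of all tested genes. It was higher at 1 (2.22%) and lower at 4 (8.89%), against 0.885% and 2.09%, and scaling to equal totals gave 2 higher and 4 lower. Both comparisons share the WT libraries. E1 was higher at EPHA3 (7.17 ± 0.17 in log2, adjusted p = 8.8e-16), PLXNA2 (2.04), NTN1 (1.55), UNC5B (1.48) and SEMA7A (1.14). E1 was lower at NRP1 (-4.61 ± 0.23, adjusted p = 4.6e-11), SLIT2 (-3.91, a ratio of 56.6 with a counting interval of 9.93 to 2311), SEMA5B (-2.06), EPHA7 (-1.45) and EPHB2 (-1.39). Over the alternative runs the E1 difference of NRP1 ranged from -5.47 to -3.23. With only the groups compared in the fit, 588 of all tested genes were called for E1 against WT in place of 814. F2 was higher at EPHA3 (1.15 ± 0.17, adjusted p = 9.9e-05), which fell under the limit at 0.97 without replicate 2 of WT with DMSO. F2 was lower at PLXNA2 (a ratio of 54.4 with a counting interval of 20.5 to 297), EPHA7 (-2.54), NRP1 (-2.22) and EFNB2 (-1.35). EPHA3, NRP1 and EPHA7 were thus called in the same direction in both clones, and PLXNA2 in opposite directions. The E1 difference of EPHA7, a gene of few reads, was not called without WT replicate 1 (adjusted p = 0.14) or 2 (0.15), or without E1 replicate 1 (0.065) or 2 (0.11). It was also lost with a pseudocount of 5 (-0.84 in log2), with no filter on low values (adjusted p = 0.076) and with only the groups compared in the fit (0.24). That last fit also ended the F2 calls of EPHA7 (adjusted p = 0.063) and EFNB2 (0.078). Of the 3 shared genes, NRP1 alone kept both calls in each alternative run. SEMA3C was higher in E1 than in WT by 1.06 without replicate 2 of E1 with DMSO, and NTN4 lower by a log2 difference of -1.01 without replicate 3, 2 calls not made with all libraries.

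The clones differed from each other at 11 of 45 tested members in DMSO (24.4%), against 7.56% of all tested genes. Of these members 7 were higher in E1 and 4 lower (15.6% and 8.89%), against 4.05% and 3.52% of all tested genes. PLXNA2 was 224 times higher in E1 with a counting interval of 85.8 to 1222, and EPHA3 differed by 6.02 ± 0.17, adjusted p = 5.0e-15. UNC5B (2.13), SEMA7A (1.87), SEMA3C (1.69), EFNB2 (1.36) and NTN1 (1.33) were also higher in E1. SLIT2 (-3.22), SEMA5B (-3.04), NRP1 (-2.40) and SEMA3D (-1.08) were lower. In DMSO, 11 members (24.4%) were called between the clones, beside 10 (22.2%) for E1 and 5 (11.1%) for F2 against WT. Over all tested genes the shares stood in the same order, at 7.56%, 5.04% and 2.98%. Without replicate 2 of E1 with DMSO, EPHA7 was also called higher in E1 (1.34), and without replicate 3 EPHA5 was called lower (-1.05).

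**Figure D4:**
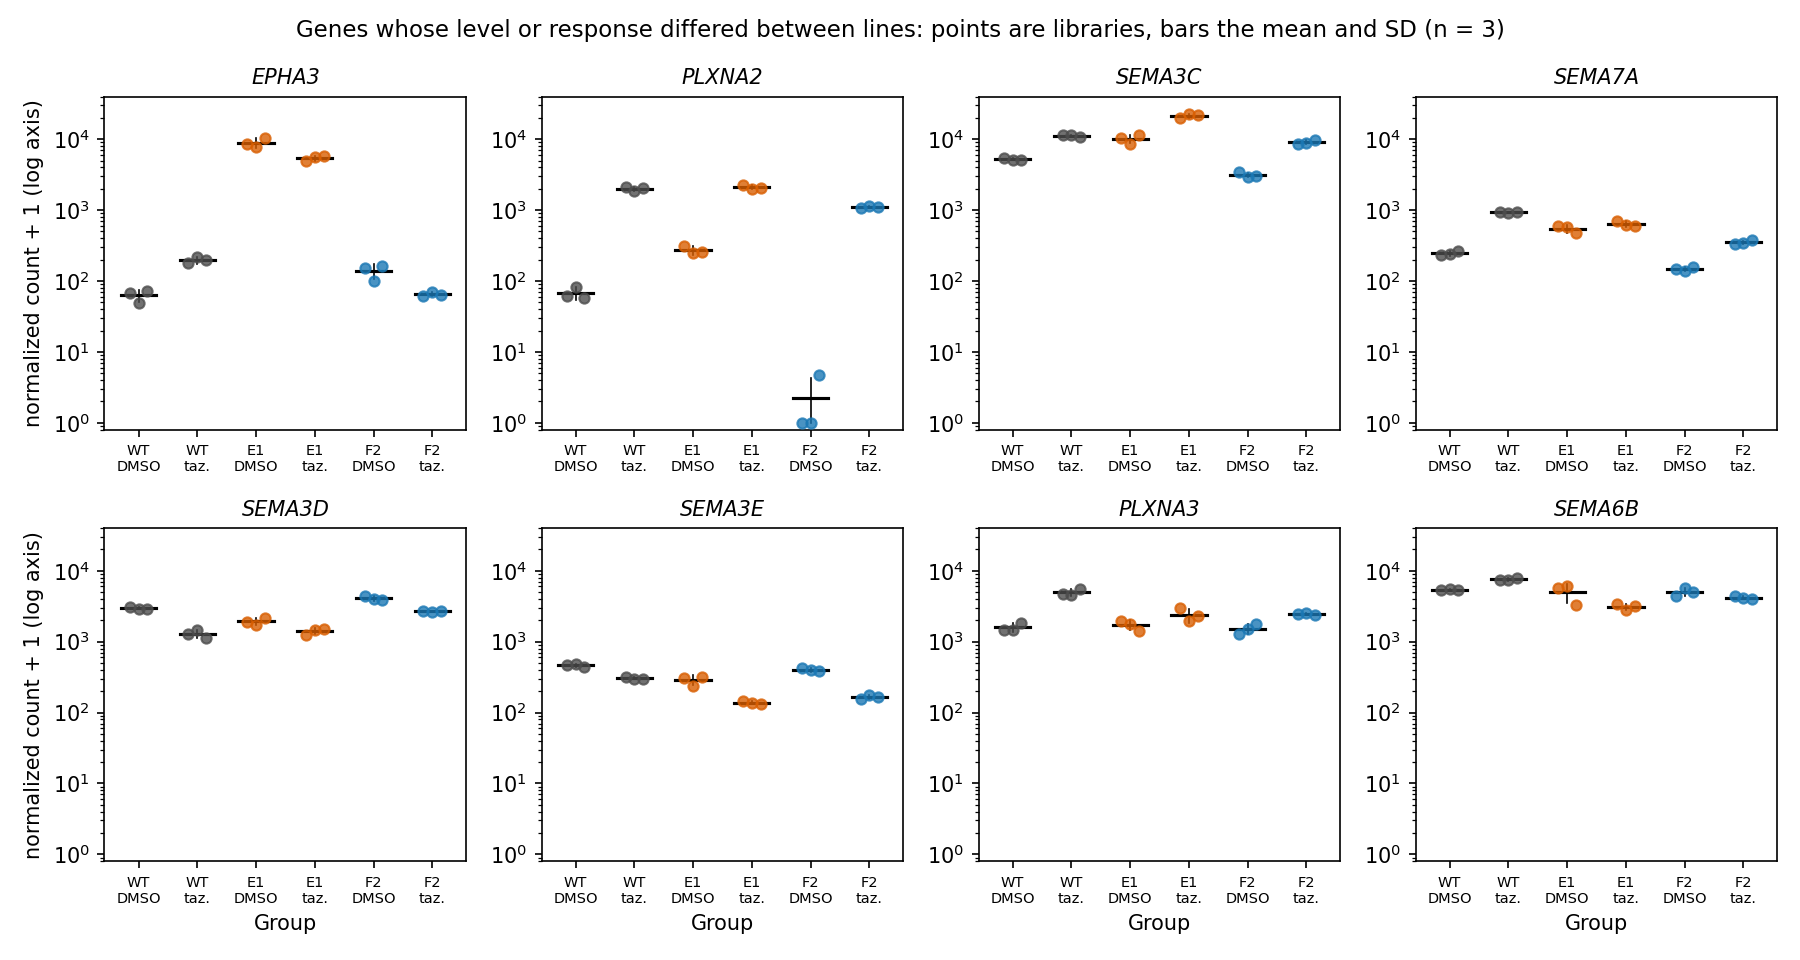
Levels of EPHA3, PLXNA2, SEMA3C, SEMA7A, SEMA3D, SEMA3E, PLXNA3 and SEMA6B as normalized count + 1 on a log axis (vertical), with 1 point per library, a bar at the mean and a line of 1 SD for each of the 6 groups of 3 libraries. EPHA3 stands highest in both E1 groups, and PLXNA2 is near 0 only in F2 with DMSO.

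With tazemetostat, E1 differed from WT at 9 of 45 tested members (20%), against 11.3% of all tested genes. It was higher at 2 and lower at 7 (4.44% and 15.6%), against 5.4% and 5.95% of all tested genes. F2 differed at 11 (24.4%), against 12.3% of all tested genes. It was higher at 7 and lower at 4 (15.6% and 8.89%), against 7.31% and 4.97%, and scaling to equal totals gave 8 higher and 2 lower. These comparisons also share the WT libraries. NTN1 was higher in E1 (2.49 ± 0.20, adjusted p = 1.0e-08) and in F2 (2.04 ± 0.20, adjusted p = 1.3e-07). EPHA3 was higher in E1 (4.77) and lower in F2 (-1.60). EPHB3 and PLXNA3 were lower in E1 (-1.09 and -1.07) and in F2 (-1.02 and -1.01). Scaled to equal totals, these F2 differences were both -0.87, under the limit. Among the rest, E1 was lower at PLXNC1 (-2.76), SLIT2 (-1.83), EPHA7 (-1.36), SEMA6B (-1.30) and SEMA3E (-1.14). F2 was higher at SEMA5B (2.25), PLXNC1 (1.84), NRP2 (1.63), PLXND1 (1.20), SEMA3D (1.07) and EFNB1 (1.02), and lower at SEMA7A (-1.40). Several of these calls sat at the limit. In E1, EPHA7 was not called without WT replicate 1 (adjusted p = 0.064) or E1 replicate 1 (0.07) or 3 (0.054), and PLXNA3 was -0.98 without WT replicate 3 and -0.93 without E1 replicate 2. In F2, without WT replicate 3 EFNB1 was 0.99, SEMA3D 0.98 and PLXNA3 -0.93. Without F2 replicate 1 EFNB1 was 0.94, without replicate 2 EPHB3 was -0.93, and without replicate 3 PLXNA3 was -0.99.

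The response to tazemetostat was compared directly, as the signed log2 change in one line minus that in another. It differed from WT at 12 of 45 tested members in E1 (26.7%), against 10% of all tested genes. Of these, 5 were higher and 7 lower (11.1% and 15.6%), against 4.79% and 5.21% of all tested genes. In F2 the response differed at 10 (22.2%), against 7.48% of all tested genes. Of these, 9 were higher and 1 lower (20% and 2.22%), against 4.82% and 2.66%. SEMA5B counts as higher in both clones because it fell in WT (-1.27) and was called with tazemetostat in neither clone. Between E1 and F2 the response differed at 9 (20%, against 5.81% of all genes), 2 higher and 7 lower in E1, against 1.78% and 4.02%. That last count was 5 without replicate 3 of F2 with tazemetostat and 5, all smaller in E1, with a pseudocount of 5. Without replicate 3 of E1 with DMSO it was 11, with EFNA1 (-1.01), NTN1 (-1.14) and SEMA3B (-1.07) gained and EPHA7 lost. Against WT, E1 then gained EPHB3 (-1.14) and SEMA3B (-1.11), and without replicate 2 it gained NTN1 (1.24). The response of PLXNA2 was -1.96 ± 0.53, adjusted p = 0.0075 in E1 against WT, 4.47 ± 0.53, adjusted p = 4.9e-06 in F2 against WT and -6.43 ± 0.53, adjusted p = 8.2e-08 in E1 against F2. The response of NRP1 was larger than in WT in E1 (4.14 ± 0.33, adjusted p = 3.4e-08) and in F2 (2.43 ± 0.33, adjusted p = 2.5e-05). In both genes the lines stood closer together with the inhibitor than without it. Their sizes rest in part on few DMSO reads, at most 3 per F2 library for PLXNA2 and at most 2 per E1 library for NRP1. Over the alternative runs, PLXNA2 in F2 against WT ranged from 2.71 to 5.21 and was always called. NRP1 in E1 against WT ranged from 2.76 to 5.00 and was also always called. For NRP2 and PLXNC1, which had next to no reads in DMSO, such differences rest on the pseudocount of 1. On the recovered reads, neither edgeR nor DESeq2 called them, with adjusted p from 0.064 to 1.

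Levels of different genes can be compared only per length, so normalized counts were divided by the summed exon length of each gene in kilobases. In WT with DMSO, SEMA6B led at 1216 per kilobase, followed by EFNB3 at 1031, SEMA3C at 835, PLXNB2 at 834, NTN4 at 703 and SEMA3A at 690.5. With tazemetostat SEMA3C led at 1783, and EPHA2 entered the first 5 at 1309. On this scale NRP2 stood above NRP1 in treated cells, with 175 against 44.6 per kilobase in WT, 284 against 32.2 in E1 and 543 against 51.7 in F2.

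Further genes of the pathway, 24 other ligands and receptors and 45 signal transducers, were taken from a list. That list was also chosen with earlier results of these data known. Of the 64 tested, 24 rose and 1 fell in WT (37.5% and 1.56%), against 14.5% and 6.77% of all tested genes. In E1 21 rose and 3 fell (32.8% and 4.69%), against 11.3% and 3.78%. In F2 27 rose and 2 fell (42.2% and 3.12%), against 13.3% and 3.71%. Their median log2 change was 0.54, 0.37 and 0.35, beside 0.03, 0.02 and 0.02 over all tested genes. The filter on low values bears on these counts as it does on those of the members. The 3 with the largest rises in WT were ABLIM1, PDZRN3 and NRCAM. ABLIM1, an actin-binding protein, went from 3.49, 3.77 and 1.89 to 8132, 7603 and 7809 normalized counts. PDZRN3, a ubiquitin ligase, went from no read to 251, 260.0 and 269.7. NRCAM, a cell adhesion molecule of neurons, went from no read to 141, 151 and 166. The fall in WT was of SEMA4G, a class 4 semaphorin, from 4721, 5019.5 and 5198 to 2209, 2020.2 and 2211.

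The remaining 13 members were too low to test. EPHA6, EPHA8, EPHB6, DCC and UNC5D had at most 3 reads in each library. The other 8 were EPHA1, EPHA4, SEMA5A, SEMA6D, PLXNA4, SLIT1, ROBO2 and UNC5C, which had over 3 reads in some library. EPHA4, a receptor of both ephrin classes, had no read in DMSO and 28.8 normalized counts on average in treated WT, at least 10.4-fold higher. PLXNA4, another class A plexin, had no read in WT with DMSO and averaged 10.9 with tazemetostat, at least 3.95-fold higher. ROBO2, the neighbour of ROBO1 on chromosome 3, had no read in any E1 library and 0 to 27.9 normalized counts over all 18. The other 5 ranged over 0 to 11.8 (EPHA1), 0 to 10.3 (SEMA5A), 0 to 3.94 (SEMA6D), 0 to 4.93 (SLIT1) and 0 to 7.39 (UNC5C).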

How the data were processed

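RNA of the 18 G401 libraries was poly(A)-selected, made into stranded libraries and sequenced in paired ends, per the labels' protocols. The submitters' processing notes name Trim Galore 0.4.4, STAR 2.6.0a, HTSeq, DESeq2 and the build hg19. The annotation and the strand setting are not given in the sources used here. The deposited values are a signal, gene counts that the authors divided by 1 size factor per library. Multiplied by that factor (0.812 to 1.145) they gave whole reads for 100% of values within 0.001.

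Tests used limma 3.58.1 (lmFit, eBayes with trend, Benjamini-Hochberg adjustment within a contrast) in R 4.3.3 on log2(value + 1) over 16154 genes with a mean of at least 10, in 1 fit of 6 group means with 11 contrasts. Log2 changes on this scale understate those of low genes. The fit was tested on simulated data. On the recovered reads, edgeR 4.0.16 called 3466 genes and DESeq2 1.42.0 3461 with tazemetostat in WT, against 3436 here. Other alternatives were pseudocounts of 0.5 and 5, no filter or a mean of at least 50, equal totals, TMM scaling, only the groups compared, the replicate block and leaving out each library. Exon lengths came from GENCODE v29 and promoters from RefSeq, matched by symbol.

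Replicate numbers are shared between groups, but nothing states that a number marks a shared culture or day. The deviations of same-numbered samples correlated above 0.1 in all 3 pairs only for F2 against WT in DMSO (0.182, 0.108 and 0.375). In the other comparisons the lowest r was -0.244 to 0.05. The members, the list of other pathway genes and the marker lists (neuronal, endothelial, leukocyte and epithelial) were chosen with earlier results of these data known. Values in every library are given for members called in at least 1 contrast with a group mean of at least 200, and of the other pathway genes the 3 largest rises and falls in WT are named. Each group has 3 libraries, so an exact permutation test of a single gene cannot go below p = 0.1.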

Additional observations from a re-analysis of the deposited data

Results flagged for a closer look

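The following members were set aside because their response to tazemetostat, the log2 change against DMSO, was tested to differ between 2 lines by at least 1 with an adjusted p under 0.05 in limma. Comparisons with WT share the WT libraries, and those of E1 with F2 share the clones' libraries with both.

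In E1 the response was larger than in WT for NRP1 (4.14 in log2), SLIT2 (2.08), NRP2 (1.34) and EPHB2 (1.03). The difference was also positive for SEMA5B (1.66), which fell in WT and was not called with tazemetostat in E1. In E1 the response was smaller, or of the other sign, for PLXNC1 (-2.76), EPHA3 (-2.40), PLXNA2 (-1.96), SEMA7A (-1.68), UNC5A (-1.32), PLXNA3 (-1.18) and SEMA6B (-1.16). EPHB2 was under the limit at 0.96 without replicate 3 of E1 with DMSO, at 0.98 without replicate 3 of WT with DMSO or of treated E1, and just under it without replicate 1 of treated WT. SEMA6B was at -0.99 without replicate 2 of E1 with DMSO. SLIT2 rests on a single E1 read in DMSO and was 0.32 with a pseudocount of 5 (adjusted p = 0.36, limma), where EPHB2 was 0.98 and NRP2 0.87. NRP2 was also lost in edgeR (adjusted p = 0.12) and DESeq2 (0.21). PLXNC1 was lost in both tools as well (adjusted p = 0.20 in DESeq2).

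In F2 the response was larger than in WT for PLXNA2 (4.47), NRP1 (2.43), EPHA7 (2.20), NRP2 (1.89), PLXNC1 (1.84), NTN1 (1.82), UNC5B (1.46) and EFNB1 (1.01). The difference was also positive for SEMA5B (1.26), which fell in WT and was not called with tazemetostat in F2. EPHA3 went the other way (-2.75), with a rise in WT and a fall in F2. SEMA5B missed the threshold with the replicate block (adjusted p = 0.056, limma), and when a library was left out it was called only without replicate 2 of treated F2 (adjusted p otherwise 0.055 to 0.11). EFNB1 was at 0.92 to 0.99 without replicates 1 or 2 of WT with DMSO, 3 of treated WT, 1 or 3 of F2 with DMSO, or 1 of treated F2. EPHA7 had an adjusted p of 0.053 without replicate 1 and 0.054 without replicate 2 of WT with DMSO, and was 0.87 with a pseudocount of 5 (adjusted p = 0.10). NRP2 was lost in edgeR (adjusted p = 0.32) and DESeq2 (0.31), and PLXNC1 was lost in both tools (adjusted p = 0.55 in DESeq2).

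Between the clones, the response was larger in E1 for SLIT2 (1.93) and NRP1 (1.71). It was smaller in E1 for PLXNA2 (-6.43), PLXNC1 (-4.60), UNC5B (-2.16), EPHA7 (-2.11), EFNB2 (-1.13), UNC5A (-1.04) and SEMA7A (-1.01). When a library was left out, EPHA7 was called only without replicate 2 of E1 with DMSO, 2 of treated E1 or 3 of F2 with DMSO (adjusted p otherwise 0.056 to 0.087), and EFNB2 only without replicate 3 of E1 with DMSO or 1 or 3 of F2 with DMSO (otherwise 0.063 to 0.13). EPHA7 was also lost in edgeR (adjusted p = 0.13), in DESeq2 (0.10) and in limma with no filter on low values (0.085). PLXNC1 was lost in edgeR and in DESeq2 (adjusted p = 0.064 in DESeq2). EFNB2 was also lost in limma with no such filter (0.085) and with TMM scaling (0.051). SEMA7A was at -0.95 to -0.99 without replicates 1 or 2 of E1 with DMSO, 2 or 3 of treated E1, 2 of F2 with DMSO or 3 of treated F2. UNC5A had an adjusted p of 0.053 to 0.072 without replicates 1 or 2 of E1 with DMSO, 2 of treated E1, 1 of F2 with DMSO, or 1 or 3 of treated F2. With a pseudocount of 5, 5 members were called in this comparison, all of them smaller in E1. SLIT2 was then 0.32 (adjusted p = 0.48), NRP1 0.66 (0.10), EFNB2 -0.82 (0.072) and SEMA7A -0.99.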

How the results depend on the processing

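The members made 148 calls over the 11 contrasts, and these were recomputed in 2532 combinations with an alternative. None reversed, 115 fell short of the threshold, and 114 of the 148 calls were kept in each alternative run. Calls lost in at least 1 alternative were 7 of 71 for tazemetostat against DMSO, 10 of 46 between lines and 17 of 31 between responses. Counts moved by over 1.5 times in 4 cases, and the cause was not tested. With only the 2 groups in the fit, F2 against WT in DMSO gave 3 members in place of 5. With no filter on low values, E1 against WT with tazemetostat gave 15 in place of 9, where more members were tested. For the response of E1 against F2, a pseudocount of 5 gave 5 in place of 9, and so did leaving out replicate 3 of F2 with tazemetostat (5). Leaving out each library in turn gave 26 to 27 members with tazemetostat in WT, 20 to 22 in E1 and 22 to 23 in F2. It gave 9 to 11 for E1 and 4 to 6 for F2 against WT in DMSO, 8 to 10 and 9 to 11 with tazemetostat, and 11 to 12 for E1 against F2 in DMSO. For responses it gave 11 to 13 for E1 and 7 to 10 for F2 against WT, and 5 to 11 for E1 against F2. Equal totals moved the median change of all tested genes from 0.03 to -0.12 with tazemetostat in WT, from 0.00 to 0.14 for F2 against WT with tazemetostat, and from 0.01 to 0.13 for the response of F2 against WT. The replicate block ended 1 member's call, SEMA5B in the response of F2 against WT (1.26, adjusted p = 0.056), and gave 3444 calls over all genes with tazemetostat in WT in place of 3436. Members with at most 3 reads per library could not be compared at this depth.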
